A study of Mus musculus with 15 samples.

Results

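The genes described here are 41 that encode the enzymes of glycolysis, the carriers of glucose and lactate, the Hif transcription factors with the proteins that destroy them, and known Hif targets. They were listed by name and role, and all 41 were found among the 23329 genes counted. RNA sequencing was run on 15 mouse tumors, each from a different animal: lymphomas taken from cervical lymph nodes of C57BL/6 mice, 4 of them EμMyc and 3 EμMyc/Casp2-/-, and neuroblastomas of paraspinal thoracic sites in Sv129/C57BL6 mice, 4 of each genotype (Th-MYCN, and Th-MYCN/Casp2-/-). The EμMyc transgene places c-Myc under the enhancer of the immunoglobulin heavy chain, active in B lineage cells, and the Th-MYCN transgene places human MYCN under the promoter of tyrosine hydroxylase, active in sympathetic neuroblasts. The Casp2-/- animals carry the same transgene and lack a functional caspase-2 gene in every cell. Tumor onset was at 13 to 19 weeks in the EμMyc, 8 to 12 weeks in the EμMyc/Casp2-/-, 10 to 21 weeks in the Th-MYCN and 15 to 24 weeks in the Th-MYCN/Casp2-/- animals. The neuroblastomas had been picked for little or no visible blood supply, which limits them as a model of how these genes behave in neuroblastoma at large. The study left out a further EμMyc/Casp2-/- tumor as an outlier with poorly correlated expression. The 3 that remain were thus selected in part on expression, which bears on their spread and on every test that uses them. Tumor type, organ and strain background differed together and cannot be told apart. Among the lymphomas, genotype and onset also differed together, without overlap in onset, and cannot be told apart.

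Glycolysis splits glucose into pyruvate, and lactate dehydrogenase then turns pyruvate into lactate, which leaves the cell through monocarboxylate transporters. Several steps have more than one gene, and tissues and tumors differ in which copy they use: Hk1 is the hexokinase of brain and many adult tissues and Hk2 that of muscle, fat and many tumors, while Ldha is the muscle and Ldhb the heart form of lactate dehydrogenase. Under normal oxygen the prolyl hydroxylases of the Egln family mark Hif1a and Epas1 for destruction through Vhl, and in hypoxia the stabilised proteins pair with Arnt and switch on many glycolytic genes. Myc proteins are also known to activate several of these genes, Ldha and Hk2 among them.

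Reads per library, on the strand of the gene count used, ranged from 4940464 to 17638029, and levels are given as CPM, the reads of a gene per 1000000 reads after TMM scaling. The labels of tumor type held, since the 6 B cell markers summed to 1982 to 3614 CPM in the lymphomas and to 7.97 to 22.2 CPM in the neuroblastomas, and the 6 sympathetic neuroblast markers to 1.81 to 14.5 and 2118 to 4322 CPM. The targeted gene, Casp2, was read at 125 to 203 CPM in EμMyc and 51.9 to 76.1 CPM in EμMyc/Casp2-/- tumors, and at 76.01 to 125 CPM in Th-MYCN and 39.6 to 80.2 CPM in Th-MYCN/Casp2-/- tumors, so transcript remained in every Casp2-/- tumor and overlapped between the neuroblastoma genotypes. In lymphoma, where the genotypes did not overlap, the log2 fold change was -1.35, with an FDR of 0.054 by edgeR's quasi-likelihood test, 0.00040 by its likelihood ratio test and 0.00032 by DESeq2. In neuroblastoma it was -0.79, with an FDR of 0.33, 0.10 and 0.11 by the same tests. The study reports that genotyping and immunoblotting of every tumor showed the Casp2 deletion. The EμMyc/Casp2-/- tumor EuMycC2ko215 stood apart: it had the fewest reads of all, and its 6 T cell markers summed to 1123 CPM against 26.0 to 126 CPM in the other lymphomas, with Cd8a at 362 CPM. Values that rest on it are therefore also given without it. In whole tumors, fewer cells of a type and less RNA per cell cannot be told apart.

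Eno1, the enolase of most tissues, had 0 reads on the strand counted and 925 on the other strand over all 15 tumors, so the Eno1/Eno2 balance could not be measured. Gapdh had 6.45% of its reads on the strand counted, where the median member had 49.6%. The cause of this uneven strand split was not tested. Reads that match more than one place are also left out of the counts, and of the 50-base windows of their transcripts Eno1 shared 72.2% and Gapdh 82.5% with other genes. Pgk1 shared 68.0%, Bnip3 62.4%, Pgam1 41.5%, Pkm 34.4%, Ldhb 27.01%, Gpi1 25.3% and Bnip3l 23.4%, and their values cover only the part of each gene that is unlike its copies. Car9, a surface carbonic anhydrase used as a hypoxia marker, stayed at or under 1.25 CPM in every tumor. Car9 and Eno1 did not pass the filter on low counts, which required over 1 CPM in at least 3 tumors, and 39 members were tested.

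**Figure D1:**
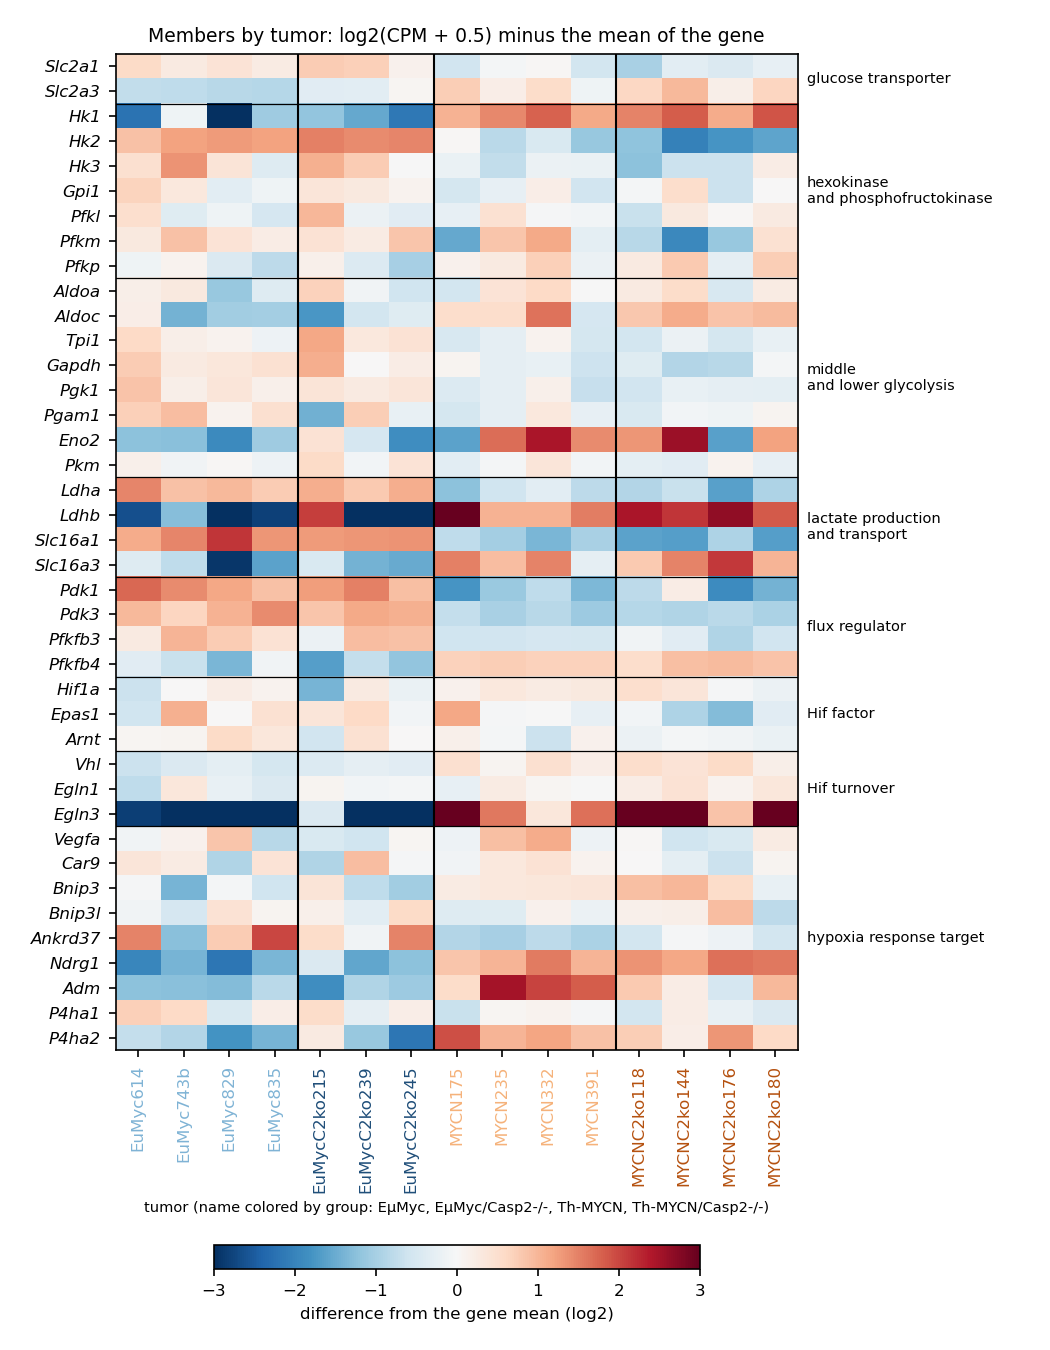
Level of 40 members (rows, grouped by role) in each of 15 tumors (columns), as log2(CPM + 0.5) minus the mean of the gene over all tumors, with Eno1 left out because it had no reads. Hk1, Ldhb, Slc16a3, Egln3, Ndrg1 and P4ha2 are mostly blue in the 7 lymphomas and red in the 8 neuroblastomas, while Hk2, Ldha, Slc16a1, Pdk1 and Pdk3 show the reverse.

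The first question was how the tumor types differed with Casp2 intact and without it. In EμMyc against Th-MYCN tumors 9 members were higher and 12 lower in lymphoma at an FDR under 0.05, and in EμMyc/Casp2-/- against Th-MYCN/Casp2-/- tumors 12 were higher and 11 lower. In the first comparison 19 and in the second 20 members did not overlap between the tumor types, beside 59.4% and 54.8% of all genes. The 21 of 39 members called (53.8%) and 23 of 39 members (59.0%) stand beside 60.3% and 58.3% of all 14880 genes tested, so the members as a set were called about as often as other genes. By direction, 27.4% of all genes were higher and 32.9% lower in the first comparison, and 26.8% and 31.4% in the second. The members' median log2 fold change was -0.01 and 0.10, and that of all genes -0.04 and -0.05. The comparisons use different tumors, and 18 members passed in both, 8 of them higher and 10 lower in lymphoma each time. Ankrd37, Eno2 and Ldhb passed only with Casp2 intact and Gapdh, Hk3, Pfkp, Pkm and Tpi1 only without it, and Ldhb passed there too once EuMycC2ko215 was left out. For these 8, that is no sign that the difference between tumor types changed with genotype, since no member passed the test of that change.

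Among the glucose transporters, Slc2a1, the carrier of most dividing cells, was higher in lymphoma, by 1.57-fold with Casp2 (log2 fold change 0.65 ± 0.23 SE, FDR = 0.024) and 2.07-fold without it (1.05 ± 0.25, FDR = 0.0020). The first call was lost without MYCN175 or MYCN391 (FDR = 0.066 and 0.075). Its levels were 30.1 to 37.7 CPM in EμMyc, 27.8 to 43.2 CPM in EμMyc/Casp2-/-, 16.9 to 25.7 CPM in Th-MYCN and 12.6 to 21.1 CPM in Th-MYCN/Casp2-/- tumors. Slc2a3, the high-affinity carrier of neurons, was lower in lymphoma, by 2.27-fold (log2 -1.18 ± 0.20, FDR = 0.00012) and 1.77-fold (-0.82 ± 0.22, FDR = 0.0045). It lay at 52.8, 52.7, 49.5 and 49.4 CPM in the EμMyc tumors, at 70.5, 71.2 and 92.6 CPM in the EμMyc/Casp2-/- tumors, at 148, 103, 131 and 81.8 CPM in the Th-MYCN tumors and at 136, 176, 101 and 140 CPM in the Th-MYCN/Casp2-/- tumors. For both carriers the lymphomas did not overlap the neuroblastomas of the same genotype.

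The hexokinases trap glucose in the cell as glucose 6-phosphate, and Hk1 and Hk2 moved in opposite directions. Hk1 was read at 14.5, 63.0, 6.06 and 32.7 CPM in the EμMyc tumors, at 29.9, 23.5 and 15.3 CPM in the EμMyc/Casp2-/- tumors, at 143, 188, 237 and 152 CPM in the Th-MYCN tumors, and at 196, 243, 149 and 255 CPM in the Th-MYCN/Casp2-/- tumors. Every lymphoma was under every neuroblastoma, although the EμMyc tumors themselves spread over 10.4-fold. The fold change was 6.20-fold lower in lymphoma with Casp2 (log2 -2.63 ± 0.51, FDR = 0.00036) and 9.24-fold lower without it (-3.21 ± 0.59, FDR = 0.00026). Without EuMyc743b, the highest lymphoma, the first was 10.1-fold. Hk2 lay at 72.2, 89.7, 95.2 and 89.4 CPM in the EμMyc tumors, 111, 105 and 107 CPM in the EμMyc/Casp2-/- tumors, 39.6, 21.8, 28.1 and 17.3 CPM in the Th-MYCN tumors and 16.5, 9.06, 11.1 and 12.6 CPM in the Th-MYCN/Casp2-/- tumors. It was 3.24-fold higher in lymphoma with Casp2 (log2 1.70 ± 0.24, FDR = 2.2e-05) and 8.73-fold higher without it (3.13 ± 0.27, FDR = 1.2e-07). Hk3, the hexokinase of white blood cells, stayed between 1.51 and 11.5 CPM in every tumor and passed only in the Casp2-/- comparison (log2 1.28 ± 0.49, FDR = 0.037), a call lost without EuMycC2ko215 (FDR = 0.093).

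The later steps of upper glycolysis differed less. Gpi1, which isomerises glucose 6-phosphate, and the phosphofructokinase genes Pfkl and Pfkm did not pass in either comparison, with log2 fold changes between -0.13 and 1.15. Pfkp, the platelet form of phosphofructokinase, was lower in lymphoma without Casp2 (log2 -0.78 ± 0.32, FDR = 0.045) and not called with it (-0.54 ± 0.29, FDR = 0.12). The call on Pfkp was lost in 7 of 15 fits that left out a tumor.

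Of 8 genes tested in the middle and lower part of the pathway, 1 was higher and 2 lower in lymphoma with Casp2, and 4 and 1 without it. Aldoa, the main aldolase, did not pass (log2 -0.35 ± 0.34, FDR = 0.39, and -0.10 ± 0.37, FDR = 0.83), and it was read at 146 to 520 CPM in the lymphomas and 221 to 492 CPM in the neuroblastomas. Aldoc, the aldolase of brain, was 3.08-fold lower in lymphoma with Casp2 (log2 -1.62 ± 0.54, FDR = 0.018) and 3.73-fold lower without it (-1.90 ± 0.61, FDR = 0.015). Its levels were small in both, at 4.37, 1.11, 1.57 and 1.59 CPM in the EμMyc tumors, 0.781, 2.42 and 2.83 CPM in the EμMyc/Casp2-/- tumors, 5.68, 5.67, 12.8 and 2.53 CPM in the Th-MYCN tumors and 6.99, 8.80, 7.23 and 7.799 CPM in the Th-MYCN/Casp2-/- tumors. The EμMyc and Th-MYCN tumors overlapped, and the Casp2-/- tumors did not. Each call was lost when 1 of some tumors was left out: without EuMyc743b or without MYCN332 in the first (log2 -1.398, FDR = 0.052, and -1.09, FDR = 0.096), and without EuMycC2ko215 in the second (-1.49, FDR = 0.061).

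Tpi1, triose phosphate isomerase, was 2.06-fold higher in lymphoma without Casp2 (log2 1.04 ± 0.23, FDR = 0.0012) and not called with it (0.47 ± 0.22, FDR = 0.071). Pgk1, which makes the first ATP of the pathway, was 1.62-fold and 1.60-fold higher in lymphoma (log2 0.70 ± 0.23, FDR = 0.016, and 0.68 ± 0.25, FDR = 0.027) on the part of its sequence that is its own. With reads of either strand the second of these values was 0.34 with an FDR of 0.24. Gapdh was called in the Casp2-/- tumors only (log2 1.08 ± 0.36, FDR = 0.017), and with reads of either strand its log2 fold change there was 0.16 with an FDR of 0.52. The first Pgk1 call was lost without MYCN391 (FDR = 0.059) and the second without EuMycC2ko245 or MYCNC2ko118 (FDR = 0.064 and 0.077). Pkm, a pyruvate kinase gene counted here without regard to its splice forms, was 1.42-fold higher in lymphoma without Casp2 (log2 0.50 ± 0.19, FDR = 0.035). This call was lost without EuMycC2ko215 (FDR = 0.092). Pgam1, a phosphoglycerate mutase, did not pass.

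Eno2 is the enolase of neurons and neuroendocrine cells. It was read at 1.84, 1.80, 0.945 and 2.12 CPM in the EμMyc tumors, 6.84, 3.34 and 1.01 CPM in the EμMyc/Casp2-/- tumors, 1.28, 16.9, 29.3 and 14.1 CPM in the Th-MYCN tumors and 13.2, 31.7, 1.25 and 12.1 CPM in the Th-MYCN/Casp2-/- tumors. All neuroblastomas but MYCN175 and MYCNC2ko176 lay above all lymphomas, and these 2, which had the latest onset of the series at 21 and 24 weeks, lay within the lymphoma range. Eno2 was 9.18-fold lower in EμMyc than in Th-MYCN tumors (log2 -3.20 ± 0.91, FDR = 0.0065) and did not pass in the Casp2-/- comparison (-2.002 ± 0.96, FDR = 0.087).

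Of the 4 genes of lactate production and transport, all passed with Casp2 and 3 without it. Ldha, which makes lactate from pyruvate, lay at 1973, 1295, 1387 and 1209 CPM in the EμMyc tumors, 1498, 1218 and 1506 CPM in the EμMyc/Casp2-/- tumors, 303, 471, 573 and 409 CPM in the Th-MYCN tumors and 388, 443, 228 and 372 CPM in the Th-MYCN/Casp2-/- tumors. The lowest lymphoma was above the highest neuroblastoma, and the difference was 3.34-fold with Casp2 (log2 1.74 ± 0.24, FDR = 1.4e-05) and 3.94-fold without it (1.98 ± 0.25, FDR = 7.8e-06). Ldhb, whose product favours the return of lactate to pyruvate, was at 1.14, 3.68, 0.551 and 0.956 CPM in the EμMyc tumors and at 88.9, 20.5, 20.4 and 28.8 CPM in the Th-MYCN tumors, a difference of 24.9-fold (log2 -4.64 ± 1.25, FDR = 0.0048), or 44.8-fold without EuMyc743b and 14.5-fold without MYCN175. In the EμMyc/Casp2-/- tumors it was at 42.4, 0.334 and 0 CPM and in the Th-MYCN/Casp2-/- tumors at 55.1, 44.6, 63.6 and 35.9 CPM, and this comparison did not pass (log2 -1.86 ± 1.21, FDR = 0.20). Without EuMycC2ko215 it did, with a log2 fold change of -7.99 and an FDR of 5.6e-05. The 42.4 CPM belonged to EuMycC2ko215, the tumor with T cell markers, and the part of those cells in its Ldhb level was not tested.

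Slc16a1 and Slc16a3 encode the monocarboxylate transporters MCT1 and MCT4, of which the second is the known exporter of highly glycolytic and hypoxic cells. Slc16a1 was read at 423, 535, 865 and 490.0 CPM in the EμMyc tumors, 469, 485 and 499.7 CPM in the EμMyc/Casp2-/- tumors, 114, 95.1, 74.4 and 98.7 CPM in the Th-MYCN tumors and 63.5, 61.4, 103 and 61.6 CPM in the Th-MYCN/Casp2-/- tumors. It was 6.06-fold higher in lymphoma with Casp2 (log2 2.60 ± 0.24, FDR = 2.2e-07) and 6.70-fold higher without it (2.74 ± 0.25, FDR = 2.6e-07). Slc16a3 was read at 9.19, 7.01, 1.18 and 3.72 CPM in the EμMyc tumors, 8.79, 4.26 and 3.94 CPM in the EμMyc/Casp2-/- tumors, 35.6, 23.8, 35.5 and 10.1 CPM in the Th-MYCN tumors and 21.5, 35.3, 55.2 and 25.2 CPM in the Th-MYCN/Casp2-/- tumors. It was 4.97-fold lower in lymphoma with Casp2 (log2 -2.31 ± 0.56, FDR = 0.0021) and 6.15-fold lower without it (-2.62 ± 0.63, FDR = 0.0023). Neither transporter overlapped between the tumor types.

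All 4 flux regulators passed in both comparisons. Pdk1 and Pdk3, kinases that shut pyruvate out of the mitochondrial pyruvate dehydrogenase complex, were higher in lymphoma. Pdk1 was 5.83-fold higher with Casp2 (log2 2.54 ± 0.39, FDR = 4.3e-05) and 3.99-fold higher without it (1.998 ± 0.40, FDR = 0.00054), at 135 to 242 CPM in the lymphomas and 19.4 to 85.7 CPM in the neuroblastomas. Pdk3 was 3.98-fold higher with Casp2 (log2 1.99 ± 0.20, FDR = 5.6e-07) and 3.85-fold higher without it (1.94 ± 0.21, FDR = 1.6e-06). It was even among the neuroblastomas, at 9.63 to 12.7 CPM, and lay at 33.6 to 57.4 CPM in the lymphomas. Pfkfb3 and Pfkfb4 make fructose 2,6-bisphosphate, the activator of phosphofructokinase, and they split: Pfkfb3 was 2.29-fold and 2.12-fold higher in lymphoma (log2 1.20 ± 0.24, FDR = 0.00057, and 1.08 ± 0.26, FDR = 0.0021), and Pfkfb4 was 2.47-fold and 4.12-fold lower (-1.30 ± 0.30, FDR = 0.0016, and -2.04 ± 0.35, FDR = 0.00013).

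No Hif factor passed between tumor types in either comparison. Hif1a was at 34.4 to 111 CPM in the lymphomas and 81.6 to 130 CPM in the neuroblastomas (log2 -0.29 ± 0.28, FDR = 0.39, and -0.48 ± 0.31, FDR = 0.20). Epas1, which encodes Hif-2α and is abundant in endothelium, gave log2 0.02 ± 0.39 (FDR = 0.97) and 0.93 ± 0.42 (FDR = 0.068), and Arnt, their partner, 0.35 ± 0.23 (FDR = 0.20) and 0.17 ± 0.24 (FDR = 0.58). Of the genes that turn Hif over, Vhl, the substrate receptor of the ubiquitin ligase, was 1.74-fold and 1.72-fold lower in lymphoma (log2 -0.80 ± 0.16, FDR = 0.00063, and -0.78 ± 0.18, FDR = 0.0017). Egln1, the main prolyl hydroxylase, did not pass (-0.23 ± 0.20 and -0.30 ± 0.22). Hif is controlled mainly at the protein level, which was not measured here.

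Egln3, a prolyl hydroxylase that Hif itself induces, had the largest fold change of all members in both comparisons. It was read at 1.92, 0.599, 0.630 and 0.850 CPM in the EμMyc tumors, 12.1, 1.17 and 0.707 CPM in the EμMyc/Casp2-/- tumors, 260, 51.1, 21.0 and 53.3 CPM in the Th-MYCN tumors and 312, 244, 30.6 and 836 CPM in the Th-MYCN/Casp2-/- tumors. Every neuroblastoma lay above every lymphoma. The log2 fold change was -6.58 ± 1.20 with Casp2 (FDR = 0.00023) and -5.37 once MYCN175 was left out. In the Casp2-/- tumors it was -6.44 ± 1.31 (FDR = 0.00065), and -8.45, -5.83 and -5.50 when EuMycC2ko215, EuMycC2ko239 or MYCNC2ko180 was left out. Every one of these values passed.

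The hypoxia response targets did not move as one. With Casp2 1 of the 8 tested was higher and 3 lower in lymphoma, and without it 0 were higher and 3 lower. Ndrg1, a stress and differentiation gene, was 7.24-fold lower in lymphoma (log2 -2.86 ± 0.28, FDR = 3.8e-07) with Casp2 and 5.55-fold lower (-2.47 ± 0.31, FDR = 6.2e-06) without it. It was read at 12.2, 18.2, 10.4 and 18.4 CPM in the EμMyc tumors, 35.9, 16.1 and 20.5 CPM in the EμMyc/Casp2-/- tumors, 86.4, 98.5, 144 and 99.1 CPM in the Th-MYCN tumors and 124, 109, 153 and 147 CPM in the Th-MYCN/Casp2-/- tumors. Adm, the vasodilator adrenomedullin, was 9.59-fold lower with Casp2 (log2 -3.26 ± 0.47, FDR = 2.6e-05) and 3.73-fold lower without it (-1.90 ± 0.51, FDR = 0.0047). P4ha2, a collagen prolyl hydroxylase, was 6.09-fold lower with Casp2 (log2 -2.61 ± 0.51, FDR = 0.00045) and 2.94-fold lower without it (-1.56 ± 0.56, FDR = 0.025), or -2.48 on the log2 scale without EuMycC2ko215. The second call was lost without EuMycC2ko239, EuMycC2ko245 or MYCNC2ko176 (FDR = 0.11, 0.088 and 0.064).

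Ankrd37, an ankyrin repeat gene, was the target that was higher in lymphoma (log2 2.12 ± 0.52, FDR = 0.0023 with Casp2, and 1.14 ± 0.53, FDR = 0.080 without it). Its EμMyc values were 40.2, 5.56, 23.9 and 57.6 CPM and its Th-MYCN values 7.45, 6.83, 7.91 and 7.04 CPM, so EuMyc743b lay under every neuroblastoma. Vegfa, the main angiogenic factor, did not pass (log2 -0.42 ± 0.36, FDR = 0.33, and -0.14 ± 0.39, FDR = 0.77). Neither did Bnip3 and Bnip3l, which mark mitochondria for removal, nor P4ha1. Endothelial cells also express some of these targets, and the 6 endothelial markers summed to 133 to 259 CPM in the lymphomas and 23.0 to 87.6 CPM in the neuroblastomas. Their part in the differences between tumor types was not tested.

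**Figure D2:**
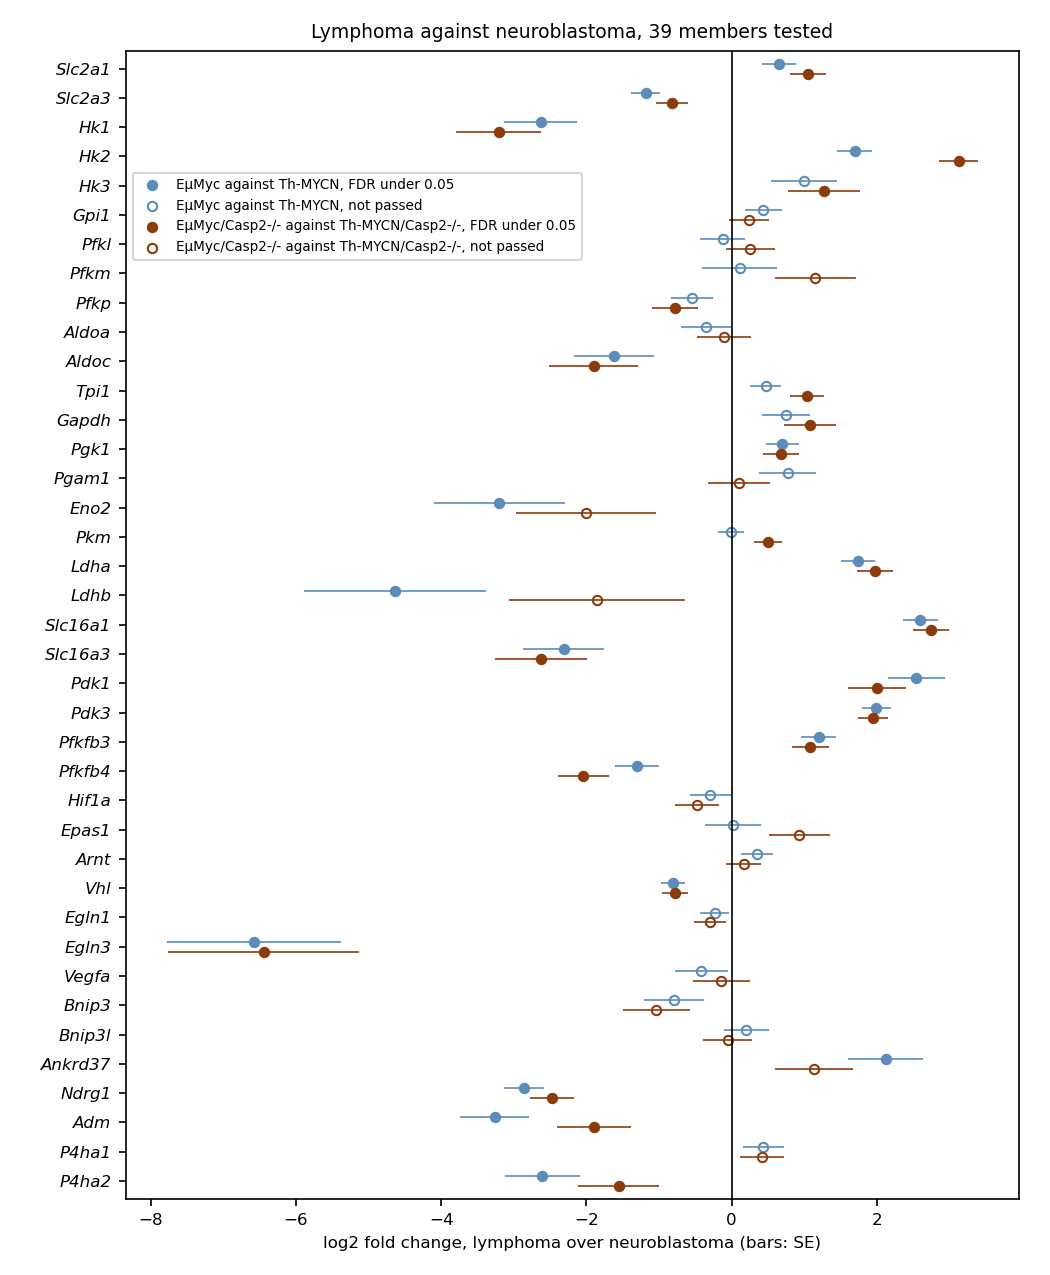
Log2 fold change of lymphoma over neuroblastoma (horizontal axis, bars are standard errors) for the 39 members tested (vertical axis), for tumors with Casp2 (blue) and without it (brown), with filled points at an FDR under 0.05. The filled points lie on both sides of 0 within most families, from Egln3 at -6.58 to Hk2 at 3.13.

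The balance between copies of the same enzyme was then compared between the 7 lymphomas and 8 neuroblastomas as a log2 ratio of their counts (0.5 read added to each count), by an exact 2-sided permutation test over all 6435 splits with Benjamini-Hochberg adjustment over 13 pairs. Of these, 12 pairs passed and 7 did not overlap at all. How often pairs of other genes would pass was not tested. Among single genes, 60.3% with Casp2 and 58.3% without it were called between the tumor types, and 59.4% and 54.8% did not overlap. The Hk1/Hk2 ratio was 48.4-fold lower in lymphoma (log2 -5.60 ± 0.51 SE), the Ldha/Ldhb ratio 131-fold higher (7.04 ± 1.20), or 239-fold without EuMycC2ko215 and 77.7-fold without EuMycC2ko245, which had 0 Ldhb reads, the Slc16a1/Slc16a3 ratio 38.1-fold higher (5.25 ± 0.57) and the Slc2a1/Slc2a3 ratio 3.65-fold higher (1.87 ± 0.23). The Pfkfb3/Pfkfb4 ratio was 6.95-fold higher (log2 2.80 ± 0.28), the Egln1/Egln3 ratio 68.1-fold higher (6.09 ± 0.87) and the P4ha1/P4ha2 ratio 6.37-fold higher (2.67 ± 0.38). For these 7 pairs the exact permutation p was 0.00016, the smallest that the splits allow, and the adjusted p was 0.00029.

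The Aldoa/Aldoc ratio was 2.89-fold higher in lymphoma (log2 1.53 ± 0.48, exact permutation p = 0.0031, adjusted p = 0.0040), with overlap. Overlap was also seen for Pfkl/Pfkp (log2 0.66 ± 0.23, adjusted exact p = 0.020), Pfkm/Pfkp (1.58 ± 0.45, adjusted exact p = 0.0040), Bnip3/Bnip3l (-1.09 ± 0.29, adjusted exact p = 0.0033) and Hif1a/Epas1 (-0.94 ± 0.37, adjusted exact p = 0.028). The Pdk1/Pdk3 ratio did not pass (log2 0.43 ± 0.31, adjusted exact p = 0.19), since both kinases were higher in lymphoma. The Hif1a/Epas1 call was lost without EuMyc743b, EuMycC2ko215, MYCNC2ko144 or MYCNC2ko176 (adjusted exact p = 0.056, 0.064, 0.051 and 0.056).

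Shares among the members of a family were set on a scale of CPM per kilobase of sequence that the gene does not share, so that genes of unequal length could be compared. Hk2 made up 46.5 to 84.2% of the hexokinase transcripts of the 7 lymphomas (median 70.4%), of Hk1, Hk2 and Hk3, and 2.70 to 16.8% of those of the 8 neuroblastomas (median 6.83%). Hk1 made up 7.11 to 43.3% and 80.6 to 96.02%. Ldhb was 0 to 4.35% of lactate dehydrogenase in the lymphomas, where the highest was EuMycC2ko215 and the others did not pass 0.454%, and 5.40 to 32.1% in the neuroblastomas. Ldha was thus the more abundant form in every tumor of both types.

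Slc16a3 was 0.139 to 2.17% of the transporter pair in the lymphomas and 9.43 to 37.0% in the neuroblastomas. Slc2a1 was 27.1 to 46.9% of the glucose carrier pair in the lymphomas and 10.3 to 22.5% in the neuroblastomas, so Slc2a3 was the larger part in all 15 tumors. Aldoa was over 98.5% of its pair in every tumor, which places the Aldoc contrast at the level of a trace. Egln3 varied most, from 0.819 to 16.7% of Egln1 and Egln3 in the lymphomas and from 26.1 to 92.05% in the neuroblastomas. The highest lymphoma was EuMycC2ko215, and the other lymphomas did not pass 5.46%. Egln3 outweighed Egln1 in 4 of the 8 neuroblastomas, MYCN175, MYCNC2ko118, MYCNC2ko144 and MYCNC2ko180. Among the members other than Eno1 and Gapdh, the highest per-kilobase levels were those of Ldha in lymphoma (median 942 CPM per kb) and of Pkm in neuroblastoma (median 501 CPM per kb). Eno1 and Gapdh could not be ranked, since all or nearly all of their reads lay on the strand not counted.

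**Figure D3:**
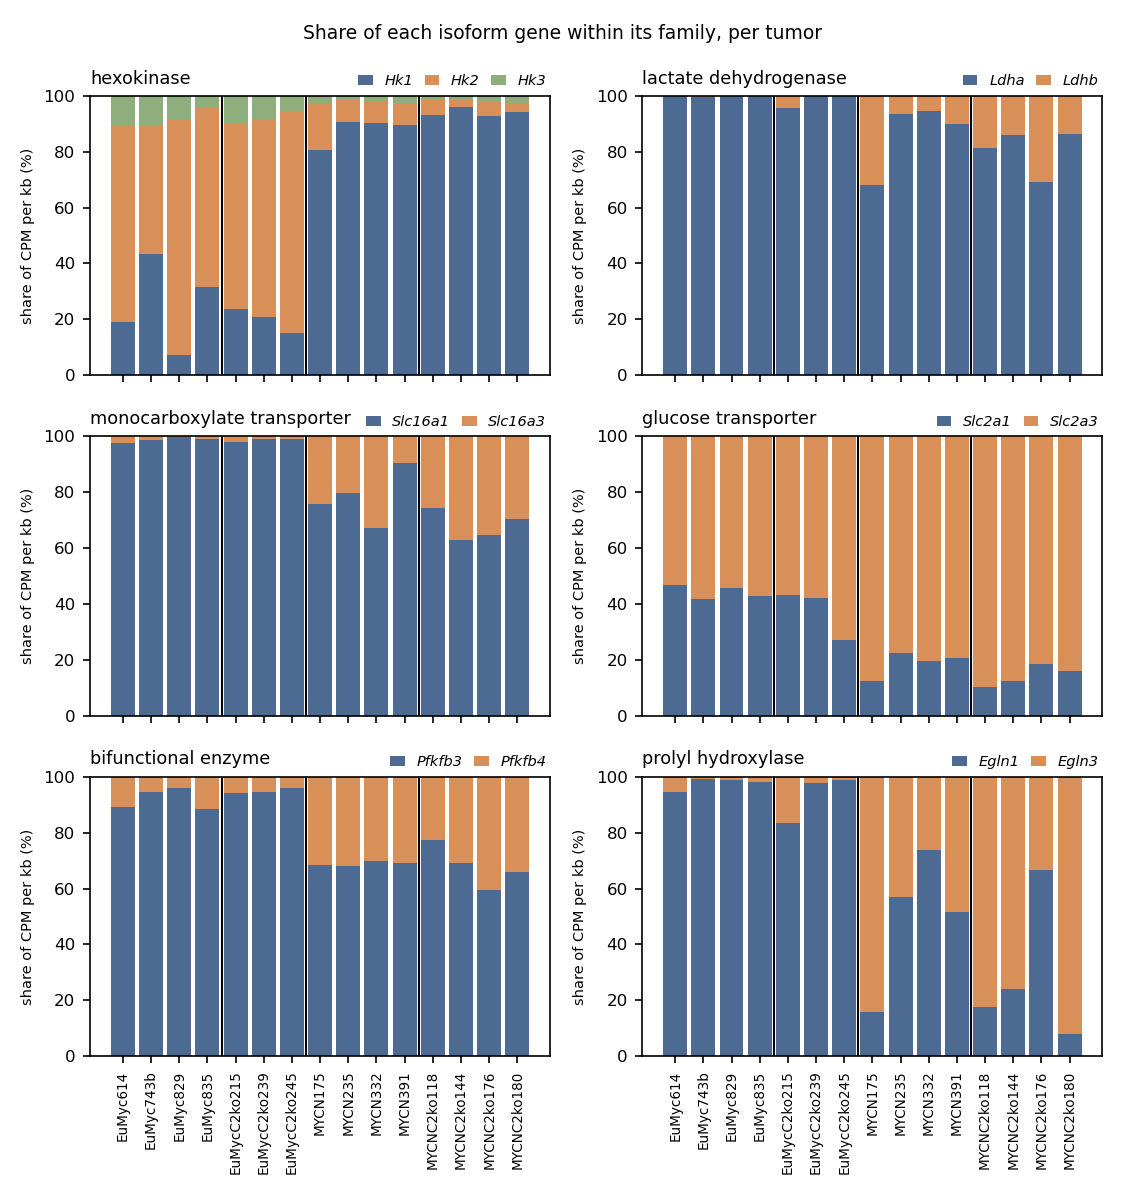
Share of each gene in the CPM per kilobase of its family (vertical axis, %) in each of 15 tumors (bars), for 6 families, with lines between the 4 groups. Hk2 fills 46.5 to 84.2% of the hexokinase bar in lymphoma and 2.70 to 16.8% in neuroblastoma, and Egln3 ranges from 26.1 to 92.05% among neuroblastomas.

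The promoters of 3 of the 7 pairs without overlap are shown because Hif and Myc proteins are both known to bind short, related motifs near the start of glycolytic genes. Hif binds sites with cores such as ACGTG, the only Hif core searched for here. Myc with Max binds the E-box CACGTG, which contains ACGTG on both strands. Each sequence holds the 250 bases before a transcription start given by RefSeq (GRCm38.p6), 5′ to 3′ on the strand of the gene, with every match to either motif on either strand in capitals. The gene spans on GRCm38 are chr10:62268855-62379908 for Hk1, chr6:82725025-82774454 for Hk2, chr7:46841475-46855627 for Ldha, chr6:142490249-142507957 for Ldhb, chr3:104638668-104658462 for Slc16a1 and chr11:120948480-120960868 for Slc16a3, so the windows of Ldha and Slc16a3 belong to starts inside the span.
Hk1, chr10:62379909-62380158, minus strand: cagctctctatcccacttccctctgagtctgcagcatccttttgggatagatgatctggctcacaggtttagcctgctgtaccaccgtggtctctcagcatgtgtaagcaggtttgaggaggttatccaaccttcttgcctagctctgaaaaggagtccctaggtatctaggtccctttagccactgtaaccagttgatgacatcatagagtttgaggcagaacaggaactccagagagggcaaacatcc
Hk2, chr6:82774455-82774704, minus strand: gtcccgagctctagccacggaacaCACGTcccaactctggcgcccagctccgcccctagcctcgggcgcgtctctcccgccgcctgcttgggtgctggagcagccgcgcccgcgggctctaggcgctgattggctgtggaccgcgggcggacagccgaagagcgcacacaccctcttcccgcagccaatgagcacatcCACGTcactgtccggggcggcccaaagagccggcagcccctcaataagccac
Ldha, chr7:46845554-46845803, plus strand: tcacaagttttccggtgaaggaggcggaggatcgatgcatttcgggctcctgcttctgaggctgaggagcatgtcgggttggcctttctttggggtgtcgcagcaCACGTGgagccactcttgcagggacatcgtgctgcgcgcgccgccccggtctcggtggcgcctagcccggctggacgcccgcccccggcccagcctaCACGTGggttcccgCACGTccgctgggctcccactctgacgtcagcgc
Ldhb, chr6:142507958-142508207, minus strand: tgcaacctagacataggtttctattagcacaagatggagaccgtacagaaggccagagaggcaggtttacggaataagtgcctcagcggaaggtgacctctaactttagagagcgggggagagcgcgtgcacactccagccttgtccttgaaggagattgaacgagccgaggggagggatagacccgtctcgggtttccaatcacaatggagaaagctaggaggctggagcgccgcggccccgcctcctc
Slc16a1, chr3:104638414-104638663, plus strand: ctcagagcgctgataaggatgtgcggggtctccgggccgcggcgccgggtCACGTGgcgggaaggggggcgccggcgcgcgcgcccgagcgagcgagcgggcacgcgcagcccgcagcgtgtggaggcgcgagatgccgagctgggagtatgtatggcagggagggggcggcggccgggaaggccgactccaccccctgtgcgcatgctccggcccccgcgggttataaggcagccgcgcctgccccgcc
Slc16a3, chr11:120948817-120949066, plus strand: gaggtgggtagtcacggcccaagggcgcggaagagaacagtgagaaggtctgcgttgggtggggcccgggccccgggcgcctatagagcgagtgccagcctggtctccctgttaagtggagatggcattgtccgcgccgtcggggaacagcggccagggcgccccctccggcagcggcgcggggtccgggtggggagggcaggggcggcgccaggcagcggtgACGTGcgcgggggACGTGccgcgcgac
In these windows Hk2 had 2 matches to the core and no E-box, Ldha 2 E-boxes and 1 further core, Slc16a1 1 E-box, and Slc16a3 2 cores and no E-box, while Hk1 and Ldhb had none of either motif. A second RefSeq start of Hk1 and one of Ldha had no match. In the other pairs without overlap a core stood in windows of Slc2a1, Pfkfb3, Egln1, Egln3, P4ha1 and P4ha2, and none in that of Pfkfb4. Among the 37 members with a RefSeq window, 25 of 51 windows (49.0%) held ACGTG, against 16.6% of the 32851 windows of all genes, and 6 windows (11.8%) held CACGTG against 6.02%. Counting only cores outside an E-box, the shares were 41.2% and 11.4%. Some members are textbook examples of genes with such sites, so the higher share is no finding about these tumors. The windows of all genes were not matched for base content, and some windows of the same gene overlap and hold the same site. A match is a description of letters and not a bound site, and a window without a match can still hold other Hif cores.

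Among tumors of the same type no tumor was highest for most of the targets of Hif, and whether the targets shared an order was not tested. Of 10 genes (the 9 targets and Egln3), the tumor with the most top ranks was EuMycC2ko215 among the 7 lymphomas, highest for 4 (Bnip3, Ndrg1, P4ha2 and Egln3), and MYCNC2ko144 among the 8 neuroblastomas, highest for 3 (Bnip3, Ankrd37 and P4ha1). The top of Vegfa lay in EuMyc829 and MYCN332 and that of Adm in EuMyc835 and MYCN235. Car9, which is among the 10, did not pass the filter on low counts. In all, 40 members with reads were highest in EuMycC2ko215 for 14 among lymphomas, and in MYCN332 for 11, MYCNC2ko144 for 9 and MYCN175 for 8 among neuroblastomas. The share of all genes that was highest in each tumor was not worked out, so these counts cannot be read as particular to the members. EuMycC2ko215 also had the fewest reads.

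The spread between tumors of a type was large for a few members. Among the neuroblastomas the highest tumor exceeded the lowest by 39.8-fold for Egln3, 25.3-fold for Eno2, 9.09-fold for Pfkm and 9.00-fold for Adm. Among the lymphomas it did so by 20.2-fold for Egln3, 10.4-fold for Hk1, 10.3-fold for Ankrd37 and 7.78-fold for Slc16a3. Ldhb, at 0 to 42.4 CPM in the lymphomas, gave no ratio because EuMycC2ko245 had no reads of it. EuMycC2ko215 was the highest lymphoma for Egln3 and Ldhb, and the others lay at 0.599 to 1.92 CPM and 0 to 3.68 CPM. MYCN175 and MYCNC2ko176, the late tumors with Eno2 near 1.3 CPM, had the highest neuroblastoma Ldhb, at 88.9 and 63.6 CPM, and the lowest Ldha, at 303 and 228 CPM. They differed in Egln3 (260 and 30.6 CPM) and Epas1 (74.9 and 13.1 CPM). With 2 such tumors of different genotype, no test was made.

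**Figure D4:**
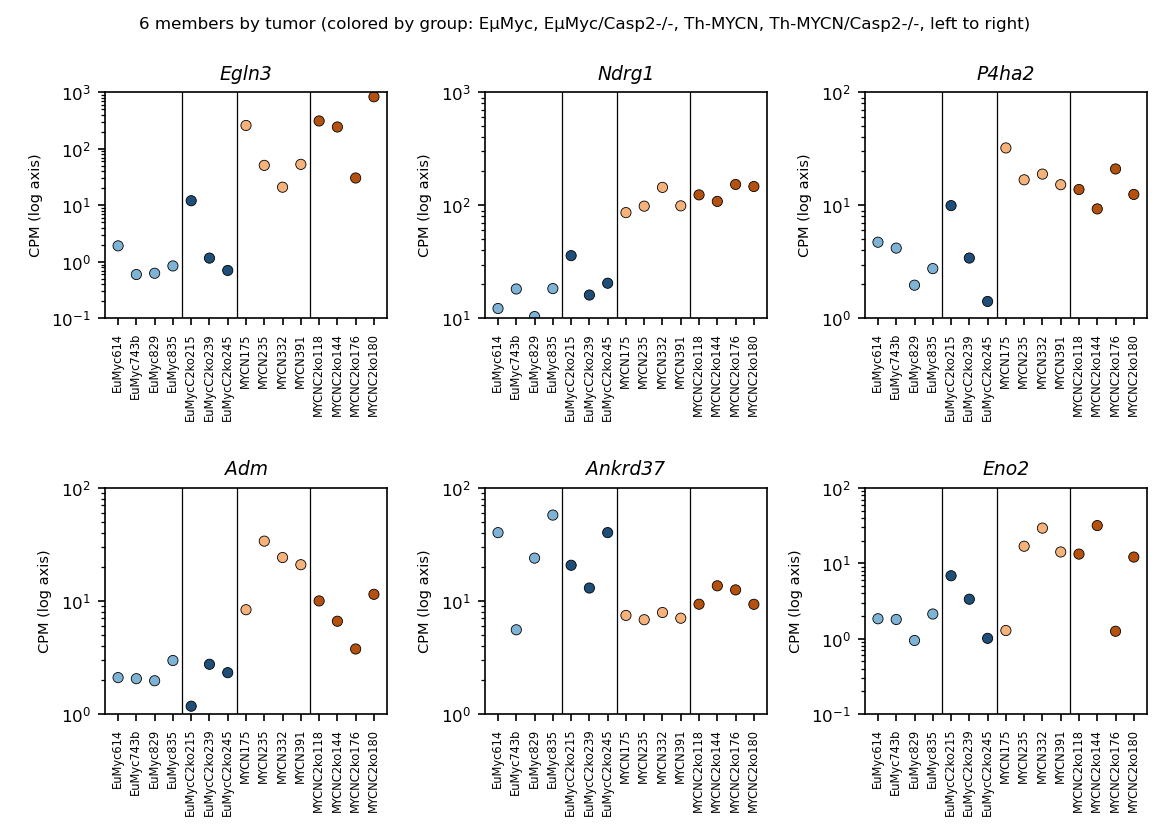
Level of 6 members (CPM, log axis) in each of 15 tumors, colored by group. Egln3 spans 21.0 to 836 CPM among the 8 neuroblastomas, Ndrg1 separates the tumor types with 35.9 CPM as the highest lymphoma and 86.4 CPM as the lowest neuroblastoma, and Eno2 is near 1.3 CPM in MYCN175 and MYCNC2ko176.

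The second question was how tumors without Casp2 differed within each tumor type. Set against Th-MYCN, the Th-MYCN/Casp2-/- tumors gave 0 of 39 members that passed by edgeR's quasi-likelihood test, where 0.0336% of all genes did. At an unadjusted p under 0.05 there were 3, Hk2, Adm and Epas1, beside 6.77% of all genes. All 3 were lower without Casp2 and 0 higher, beside 4.28% and 2.49%. The likelihood ratio test and DESeq2, which called 0.894% and 0.948% of all genes, each called 1 member, Hk2.

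Hk2 was at 39.6, 21.8, 28.1 and 17.3 CPM in the Th-MYCN and 16.5, 9.06, 11.1 and 12.6 CPM in the Th-MYCN/Casp2-/- tumors. The groups did not overlap, by a margin of less than 1 CPM, and 6.62% of all genes likewise did not overlap. The log2 fold change was -1.12 ± 0.24 (2.17-fold lower, FDR = 0.16), the FDR was 0.0070 by the likelihood ratio test and 0.0057 by DESeq2, and the change was -0.85 without MYCN175. Adm was at 8.37, 33.8, 24.2 and 20.9 CPM in the Th-MYCN and 10.0, 6.62, 3.76 and 11.5 CPM in the Th-MYCN/Casp2-/- tumors, with overlap through MYCN175 (log2 -1.45 ± 0.44, FDR = 0.35). Epas1 was at 74.9, 32.2, 33.0 and 28.2 CPM and at 31.2, 17.2, 13.1 and 26.3 CPM (log2 -0.94 ± 0.39, FDR = 0.65). Without MYCN175 its log2 fold change was -0.49. Egln3 (log2 1.88 ± 0.91, FDR = 0.76, and 3.10 without MYCN175 or 1.01 without MYCNC2ko180), Vegfa (-0.71 ± 0.36, FDR = 0.81) and Pfkm (-0.99 ± 0.53, FDR = 0.81) did not reach an unadjusted p under 0.05. Ankrd37 did not overlap either, at 6.83 to 7.91 CPM in the Th-MYCN and 9.34 to 13.6 CPM in the Th-MYCN/Casp2-/- tumors.

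Endothelial markers lay lower in the same tumors. The 6 markers summed to 51.8 to 87.6 CPM in the Th-MYCN and 23.0 to 41.02 CPM in the Th-MYCN/Casp2-/- tumors, and 3 of the 6, Pecam1, Cdh5 and Emcn, did not overlap between the groups. Pecam1 was at 23.0 ± 4.52 CPM (SD, n = 4) in the Th-MYCN and 10.0 ± 1.88 CPM (SD, n = 4) in the Th-MYCN/Casp2-/- tumors, with an FDR of 0.081 by the quasi-likelihood test and 0.00055 by the likelihood ratio test. Adm and Epas1 are known to be expressed in endothelium, and the part of endothelial content in the levels of Hk2, Adm and Epas1 was not tested. Macrophage markers summed to 246 to 357 CPM in the Th-MYCN and 169 to 342 CPM in the Th-MYCN/Casp2-/- tumors.

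In EμMyc/Casp2-/- against EμMyc tumors 0 of 39 members passed by the quasi-likelihood test, the likelihood ratio test or DESeq2, where these called 0.141%, 1.5% and 1.47% of all genes. At an unadjusted p under 0.05 there were 3, Slc2a3, Ldhb and Ndrg1, beside 8.53% of all genes. All 3 were higher without Casp2 and 0 lower, beside 5.56% and 2.97%. Slc2a3 lay at 49.4 to 52.8 CPM in the EμMyc and 70.5 to 92.6 CPM in the EμMyc/Casp2-/- tumors, without overlap, as for Hk2 and 3.7% of all genes (log2 0.61 ± 0.21, FDR = 0.38). The highest of these was EuMycC2ko245, whose 5 red blood cell markers summed to 674 CPM against 109 CPM or less in the other tumors, and the log2 fold change was 0.46 without it. Ndrg1 (0.70 ± 0.28, FDR = 0.49) and Ldhb (3.11 ± 1.25, FDR = 0.47) rested on EuMycC2ko215. Without it the log2 fold change was 0.32 for Ndrg1 and -3.06 for Ldhb.

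No isoform balance passed between genotypes by exact 2-sided permutation tests, but these had too few splits to call a lone pair after adjustment over 13 pairs. The counts of 0 therefore do not show that the balances were unchanged. In neuroblastoma 0 of 13 pairs passed after adjustment over the pairs. The Hk1/Hk2 ratio was 2.47-fold higher without Casp2 (log2 1.30 ± 0.41, exact permutation p = 0.029, adjusted p = 0.37), without overlap, and that p is the smallest that 70 splits can give. In lymphoma 0 of 13 pairs passed, with a smallest exact permutation p of 0.14 among 35 splits, which cannot go under 0.029.

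The third question was whether the difference between genotypes, called the effect below, was unlike in the tumor types. The interaction, taken as the lymphoma effect minus the neuroblastoma effect, was passed by 0 of 39 members by the quasi-likelihood test, beside 0.0538% of all genes, and had an unadjusted p under 0.05 for 1, Hk2, beside 7.57% (1 higher and 0 lower, beside 4.93% and 2.64%). Hk2 in lymphoma lay at 72.2 to 95.2 CPM with Casp2 and 105 to 111 CPM without it, a difference opposite in sign to that in neuroblastoma (log2 0.31 ± 0.25, FDR = 0.79). The difference of the effects was 1.43 ± 0.35 on the log2 scale (FDR = 0.32), with an FDR of 0.028 by the likelihood ratio test and 0.021 by DESeq2, which called 0.914% and 0.847% of all genes. The next members, Adm (1.36 ± 0.65, FDR = 0.67) and Pkm (0.51 ± 0.26, FDR = 0.70), did not reach an unadjusted p of 0.05.

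**Figure D5:**
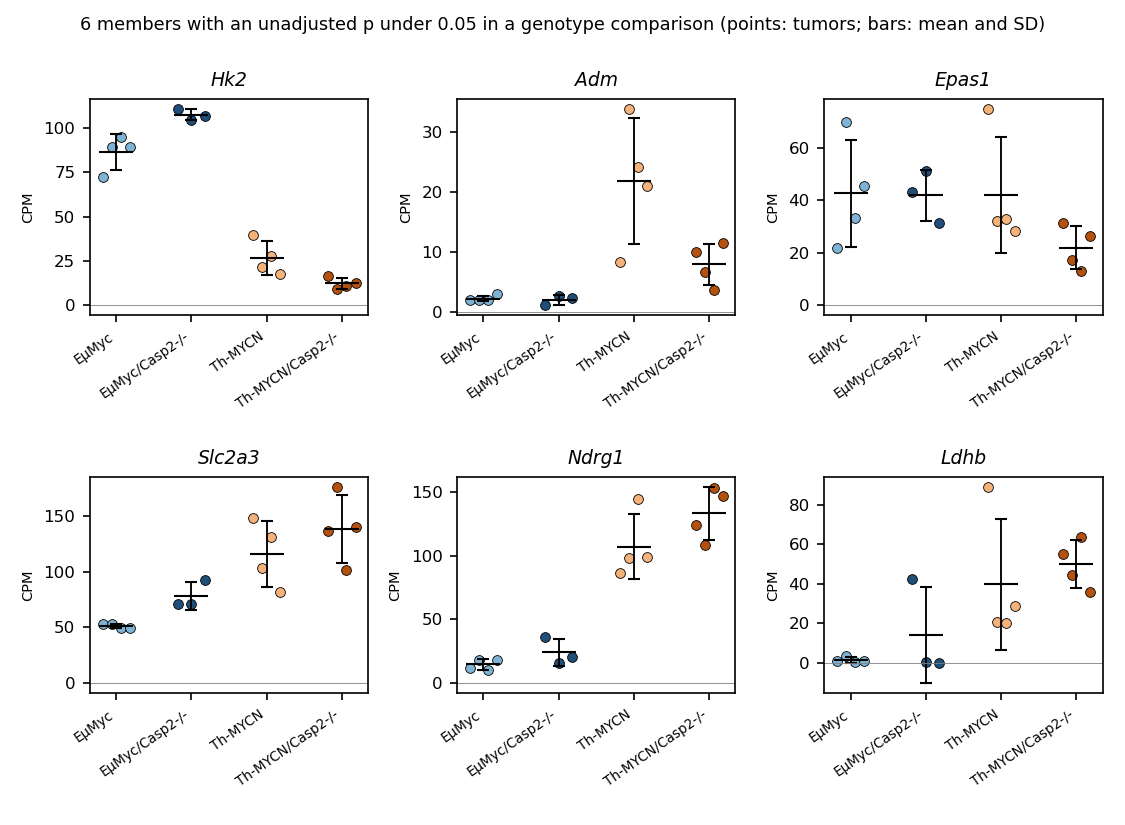
CPM (vertical axis) of the 6 members with an unadjusted p under 0.05 in a comparison of genotypes, in the 4 groups, with points for tumors and bars for the mean and SD. Hk2 is lower in Th-MYCN/Casp2-/- than in Th-MYCN tumors without overlap, at 9.06 to 16.5 against 17.3 to 39.6 CPM, and 1 tumor at 42.4 CPM sets the EμMyc/Casp2-/- mean of Ldhb.

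The other genes of these pathways were taken from 4 lists. Their counts stand beside 27.4% of all genes higher and 32.9% lower in lymphoma with Casp2, and 26.8% and 31.4% without it. Of 7 pentose phosphate genes tested, 6 were higher and 0 lower in EμMyc than in Th-MYCN tumors, and 5 and 0 in the Casp2-/- comparison. Pgd (log2 1.101 ± 0.16, FDR = 2.3e-05) and Rpia (1.03 ± 0.16, FDR = 5.4e-05), of the oxidative and the sugar interconversion arm, and Rpe (1.24 ± 0.22, FDR = 0.00017) had the smallest p of this list. Of 27 other glycolysis and pyruvate genes 3 were higher and 4 lower with Casp2 and 3 and 6 without it. Pdha1, the catalytic subunit that Pdk1 and Pdk3 inhibit, was higher in lymphoma (log2 1.20 ± 0.17, FDR = 1.6e-05).

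Of 8 other genes of the Hif pathway 1 was higher and 3 lower with Casp2, and 0 and 3 without it. Arnt2, the neuronal relative of Arnt, was at 217 ± 62.1 CPM in Th-MYCN and 0.415 ± 0.197 CPM in EμMyc tumors (SD, n = 4 each). Of 26 further hypoxia targets 9 were higher and 4 lower with Casp2 and 8 and 5 without it. Ak4, an adenylate kinase, was lower in lymphoma (log2 -3.84 ± 0.59, FDR = 4.4e-05) and Ero1a, an endoplasmic reticulum oxidase, higher (1.17 ± 0.20, FDR = 0.00014). In neuroblastoma, lymphoma and the interaction 0 genes of these 4 lists (27, 7, 8 and 26 tested) passed by the quasi-likelihood test. At an unadjusted p under 0.05 there were 5, 7 and 6, beside 6.77%, 8.53% and 7.57% of all genes. The likelihood ratio test called 3 in neuroblastoma, 1 in lymphoma and 0 in the interaction, beside 0.894%, 1.5% and 0.914% of all genes.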

How the data were processed

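PolyA-selected RNA was sequenced as single 50-base reads. Per the labels, the authors ran FastQC, used STAR to map the reads to the mm10 (GRCm38) genome, and deposited raw counts per gene on either strand, the first and the second. The second was used here, as in the study. It held 48.8 to 49.3% of the reads of both, so the libraries were not stranded and a gene and its antisense partner cannot be told apart. The annotation release is not given in the sources used here. Only uniquely placed reads are counted, and 15.0 to 24.2% of reads were multimapping.

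Genes over 1 CPM in at least 3 tumors (14880) entered 1 model of 4 group means in edgeR 4.0.16 (R 4.3.3), with TMM scaling, the quasi-likelihood F test and Benjamini-Hochberg FDR over all genes (passed: under 0.05). The SE is the log2 fold change over the square root of F. Alternatives were the likelihood ratio test, the kind of statistic in the study's tables, DESeq2 1.42.0, other scalings, no filter, either strand, other samples in the fit, sex and leaving out each tumor. Isoform ratios were tested by exact permutation (Python 3.11.15). Full statistics were given for the pairs Hk1/Hk2, Aldoa/Aldoc and Ldha/Ldhb (Eno1/Eno2, also in the rule, could not be measured), the 10 members with the smallest p per comparison, and members with an unadjusted p under 0.05 between genotypes. The members and lists were chosen with earlier results of these data known. Scripts were tested on simulated data. Each tumor is 1 animal, and 21 pairs of tumors within groups differed by 16.2 to 76.04 times the sampling noise (chi-square per degree of freedom). A count of 0 allows up to 3 reads (0.170 to 0.607 CPM), for counting error only. RefSeq promoter windows held 37 of 41 members.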

Additional observations from a re-analysis of the deposited data

Results flagged for a closer look

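Within groups of 4 tumors, 1 tumor lay apart from the other 3 by Dixon's 95% criterion in 8 of 120 sets tested (a member in a group), where chance alone gives about 1 in 20. MYCN175 was the highest Th-MYCN tumor for 3 members, with Ldhb at 88.9 CPM (next 28.8), Epas1 at 74.9 CPM (next 33.0) and Egln3 at 260 CPM (next 53.3). MYCNC2ko176 was the highest Th-MYCN/Casp2-/- tumor for Pkm at 950.1 CPM (next 737) and Slc16a1 at 103 CPM (next 63.5). These 2 neuroblastomas had the latest onset. Among EμMyc tumors, Aldoc in EuMyc614 was at 4.37 CPM (next 1.59) and Adm in EuMyc835 at 2.97 CPM (next 2.10), and among Th-MYCN tumors Hk3 in MYCN235 was the lowest at 2.32 CPM (next 3.58).

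Hk2 values lay in opposite directions in the tumor types, lower in all 4 Th-MYCN/Casp2-/- tumors and higher in all 3 EμMyc/Casp2-/- tumors than in every tumor of the matching intact group. Of all genes, 6.62% in neuroblastoma and 3.7% in lymphoma likewise did not overlap. The rise in lymphoma (log2 0.31) passed no test, with an FDR of 0.79 by the quasi-likelihood test, 0.81 by the likelihood ratio test and 0.76 by DESeq2. The interaction was 1.43 on the log2 scale with an FDR of 0.32 by the quasi-likelihood test, 0.028 by the likelihood ratio test and 0.021 by DESeq2. Endothelial marker sums were lower in Th-MYCN/Casp2-/- than in Th-MYCN tumors (23.0 to 41.02 against 51.8 to 87.6 CPM), and in lymphoma they were 133 to 259 CPM with Casp2 and 184 to 224 CPM without it. Their part in the Hk2 values was not tested.

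Eno1 had 925 reads over 15 tumors when either strand was counted, 16 to 97 in each, all of them on the first strand and 0 on the strand used for the comparisons. It did not pass the filter on low counts, and the cause of the strand split was not tested.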

How the results depend on the processing

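No paired analysis was possible because the tumors came from different animals and the labels number no replicates, so the numbers used here follow the order of deposit. Counts of members that passed changed by more than 1.5 times only between genotypes, where the likelihood ratio test and DESeq2 each called 1 member lower in neuroblastoma and 1 higher in the interaction, Hk2 both times, against 0 by the quasi-likelihood test. Leaving out 1 tumor at a time gave 7 to 12 higher and 11 to 12 lower members with Casp2, 9 to 14 and 9 to 12 without it, 0 between genotypes and in the interaction, and 11 to 12 isoform pairs. The Ldhb change between lymphoma genotypes, main value 3.11, ranged from -3.06 (without EuMycC2ko215) to 3.95 (without EuMyc743b), the only direction turned among members that passed between tumor types or had an unadjusted p under 0.05 between genotypes, and among the isoform pairs of tumor types. In the Casp2-/- comparison of tumor types, Hk3 also lost its call without EuMycC2ko239, MYCNC2ko118, MYCNC2ko144 or MYCNC2ko176 (FDR = 0.065, 0.0999, 0.080 and 0.074). Pkm did so without EuMycC2ko245, MYCNC2ko118, MYCNC2ko144 or MYCNC2ko180 (FDR = 0.101, 0.084, 0.091 and 0.051), and Gapdh without EuMycC2ko215 or MYCNC2ko144 (FDR = 0.086 and 0.052). Pfkp was lost without EuMyc614, EuMycC2ko239, EuMycC2ko245, MYCN235, MYCNC2ko118, MYCNC2ko144 or MYCNC2ko180, with FDR values between 0.0505 and 0.179. The Pdk1/Pdk3 ratio passed without MYCNC2ko144 (adjusted p = 0.043 by the exact permutation test). Calls were also gained. With Casp2, Tpi1 passed without EuMyc835, EuMycC2ko215, EuMycC2ko239 or MYCN332 (FDR from 0.018 to 0.040), Gapdh without EuMycC2ko215, EuMycC2ko239 or MYCNC2ko180 (0.025 to 0.049), Pgam1 without EuMycC2ko215 or EuMycC2ko239 (0.025 and 0.042), Hk3 without EuMyc835 or MYCNC2ko180 (0.031 and 0.049), Egln1 without EuMyc743b (0.027) and P4ha1 without EuMyc829 (0.0498). In the Casp2-/- comparison, Bnip3 passed without EuMyc743b, EuMycC2ko215 or MYCNC2ko180 (0.011 to 0.041), Epas1 without EuMyc614, MYCN175 or MYCNC2ko118 (0.041 to 0.045), Ankrd37 without EuMyc743b or EuMycC2ko239 (0.015 and 0.037), Eno2 without MYCN175 or MYCNC2ko176 (0.045 and 0.028), Pfkm without MYCN175 or MYCNC2ko180 (0.048 and 0.0090), Hif1a without EuMycC2ko239 (0.041) and Ldhb without EuMycC2ko215 (5.6e-05). With only the groups compared in the fit, Hk3, Pfkp, Gapdh, Pkm and P4ha2 were not called there. Without a filter Hk3 and Pkm, with library size alone Pfkp, and with either strand Gapdh and Pgk1 were not called there. Other scalings shifted the median of all genes by at most 0.075 on the log2 scale. Sex as a covariate was fitted in the neuroblastomas only.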
